A study of Homo sapiens with 6 samples.

Results

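The HSP70, HSP90 and J-domain chaperones were described in MDA-MB-231 cells given selamectin. These genes were taken from the array annotation by symbol. A gene entered where a transcript cluster, the group of probes that the array assigns to 1 locus, carried exactly 1 symbol beginning HSPA, HSP90A, DNAJA, DNAJB or DNAJC, or the symbol HSPD1, HSPE1 or HSPH1. HSPA5, DNAJB9 and 11 pseudogenes were left out. This gave 58 genes of the 18417 measured. There were 12 genes of the HSP70 and HSP110 families, 2 of HSP90, 2 of the mitochondrial chaperonin, and 4 DNAJA, 11 DNAJB and 27 DNAJC genes. HSPA1A and HSPA1B, the major heat-inducible HSP70 genes, share 5 clusters that carry both names, so they were not analysed here.

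MDA-MB-231 is a long-used cell line from a human breast tumour that lacks the hormone receptors and HER2 amplification, and its cells look mesenchymal. The series title asks about blocking the SIN3 corepressor with drugs of the avermectin class. There were 3 arrays of cells exposed to 1 µM selamectin, an antiparasitic macrocyclic lactone, for 24 h, and 3 arrays of control cells. Control arrays are untreated by title but vehicle by protocol, and both groups were the same line with no genetic change named. The replicates are given as independent with no further account, so p-values measure the spread between these arrays. The deposited values are log2 expression values, in which a difference of 1 is a doubling of linear signal.

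HSP70 proteins bind exposed hydrophobic stretches of other proteins and release them in a cycle driven by ATP. J-domain proteins deliver the client and start ATP hydrolysis, and HSP110 proteins and other exchange factors let the nucleotide and the client go. HSP90 takes over later folding steps of many kinases and steroid receptors, and tumour cells are known to hold high amounts of these proteins. Heat shock factor HSF1 drives the inducible members through heat shock elements, inverted repeats of GAA and TTC in their promoters.

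Of these chaperone genes, HSPA2 fell with selamectin and no other passed the test. The test was limma, a linear model with a spread shared across genes, and p-values were adjusted over the 18417 genes by the Benjamini-Hochberg method, passing under 0.05. No member rose, where the background was 2.41% of all genes rising, and 1 of 58 fell, or 1.72%, where the background was 2.28% falling and 4.69% in either direction. The median log2 change was 0.03 over the 58 members and 0.04 over all genes. Changes smaller than 0.25 log2 units in size made up 51 of the 58, where they made up 15547 of all 18417 genes. The 95% interval of the log2 change, taken gene by gene, lay inside 1.5-fold in either direction for 55 of the 58. This was so for 16868 of all 18417 genes, and both shares of the members were near those of all genes. The members whose interval was not inside it were HSPA2, HSPA1L and HSPH1.

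At an unadjusted p under 0.05 in limma, 8 members were higher with selamectin (13.8%, background 11.7%) and 3 were lower (5.17%, background 8.21%), where 19.9% of all genes were past it in either direction. The higher ones were HSPH1, HSPA8, HSPA14, DNAJC2, DNAJC11, DNAJC12, DNAJB2 and DNAJB12, and the lower ones HSPA2, HSPA1L and HSPA12A. For 11 members all selamectin arrays lay above all untreated arrays (19%, background 16%), and for 5 they lay below (8.62%, background 9.3%), where 25.3% of all genes were apart in either direction. These shares were close to those of all genes.

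**Figure D1:**
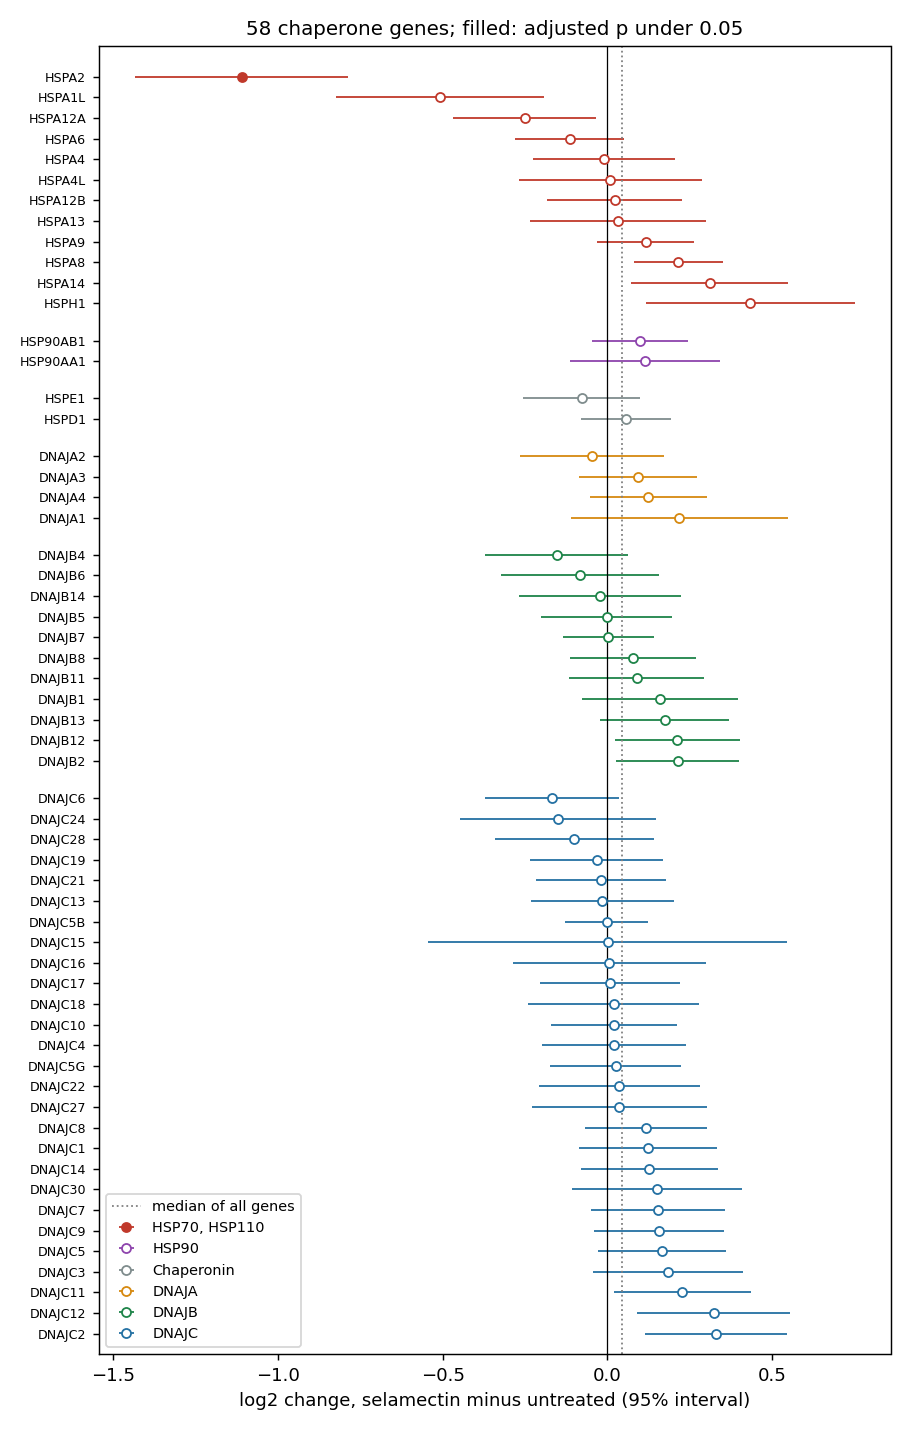
Log2 change of each of the 58 chaperone genes, selamectin minus untreated, with its 95% interval, grouped by family. HSPA2, at -1.11, is the only filled point, meaning an adjusted p under 0.05, and the dotted line is the median of all genes, 0.04.

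HSPA2 is an HSP70 with high sequence similarity to the other cytosolic members, and mice without it fail in male meiosis. Its log2 values were 9.91, 9.68 and 9.24 on selamectin arrays 1, 2 and 3, against 10.82, 10.63 and 10.70 on untreated arrays 1, 2 and 3. Every selamectin array lay below every untreated array, by at least the gap between 9.91 and 10.63. The means were 9.61 ± 0.34 with selamectin and 10.72 ± 0.10 untreated (SD, n = 3 each). HSPA2 was thus 2.16-fold lower, with a log2 change of -1.11 ± 0.15 (SE), a 95% interval from -1.43 to -0.79 and an adjusted p = 0.0045 in limma. In order of size this was fall number 8 among all 18417 genes. The spread among the selamectin arrays was wider than among the untreated ones, with selamectin array 3 lowest. Without that array the log2 change was -0.93 (limma adjusted p = 0.00097), and whichever array was left out it lay between -1.26 and -0.93 with an adjusted p of at most 0.031. Fewer cells of a type and less RNA per cell cannot be told apart in such samples.

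The other 11 genes of the HSP70 and HSP110 families had log2 changes from -0.51 to 0.43, with a median of 0.02. At an unadjusted p under 0.05 in limma 3 of the 11 were higher (27.3%, background 11.7%) and 2 lower (18.2%, background 8.21%). For 4 all selamectin arrays lay above the untreated ones (36.4%, background 16%), and for 3 below (27.3%, background 9.3%). Relative to the untreated mean, HSPA2 stood at -0.81, -1.04 and -1.48 on selamectin arrays 1, 2 and 3, while the median of those 11 genes was -0.01, -0.02 and 0.14. On each selamectin array HSPA2 was the lowest of the 12 by this measure. The change of HSPA2 minus that of another family member ran from -0.60 against HSPA1L to -1.54 against HSPH1, and was -1.13 against their median. These are descriptions with no test, since HSPA2 was singled out with its change known. The 6 nearest measured genes around HSPA2 in the RefSeq gene order, ZBTB1, AKAP5, ZBTB25, PPP1R36, PLEKHG3 and SPTB, had log2 changes between -0.19 and 0.03, and none passed in limma (lowest adjusted p = 0.18).

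**Figure D2:**
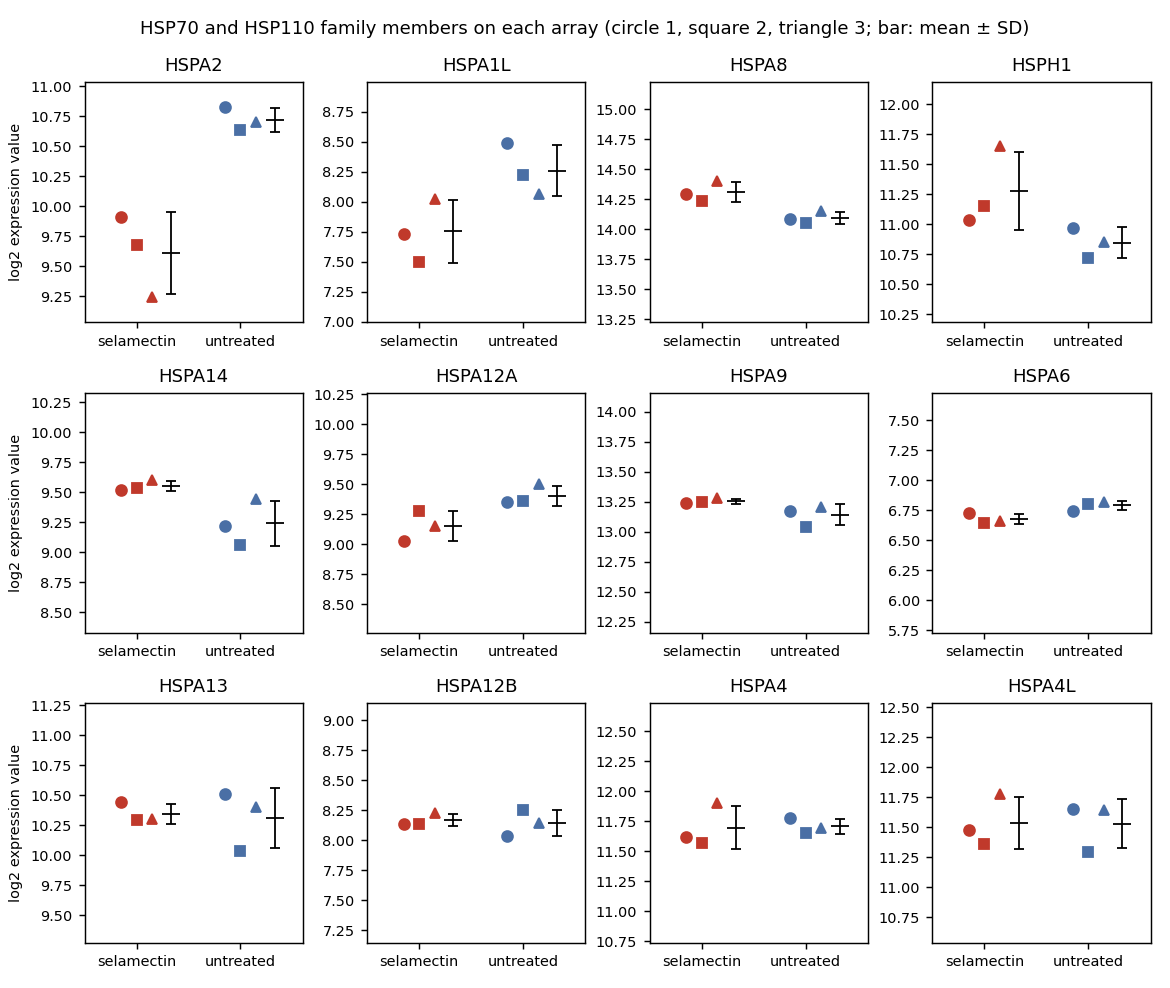
Log2 expression value of the 12 HSP70 and HSP110 family genes on each array, selamectin left and untreated right, with the mean ± SD beside the points; every panel spans 2 log2 units. The group means of HSPA2 differ by about 1.11. HSPA4, HSPA4L, HSPA12B and HSPA13 overlap between groups, and the other genes shown do not.

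HSPA1L, a testis-rich HSP70 whose gene stands beside HSPA1A, had the next most negative change of the family. Its log2 values were 7.73, 7.50 and 8.02 on selamectin arrays 1, 2 and 3, against 8.49, 8.22 and 8.07 on the untreated arrays. The groups did not overlap, but selamectin array 3 and untreated array 3 nearly met. The log2 change was -0.51 ± 0.14 (SE), and its interval ran from -0.82 to -0.19 (limma adjusted p = 0.071). Without selamectin array 3 it was -0.64 and passed (limma adjusted p = 0.018), while without any other single array the adjusted p was between 0.097 and 0.25. The 3 clusters of HSPA1L hold the same values on every array and count as 1. Its coding sequence is close to those of HSPA1A and HSPA1B, so shared probes may enter its value. HSPA12A, a distant relative of HSP70, had 9.03, 9.28 and 9.15 with selamectin, against 9.35, 9.36 and 9.50 untreated, a log2 change of -0.25 (limma adjusted p = 0.19).

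HSPA8, the constitutive cytosolic HSP70 that also strips clathrin from vesicles, lay slightly higher with selamectin. Its log2 values were 14.30, 14.23 and 14.40 on the selamectin arrays, against 14.08, 14.05 and 14.15 on the untreated arrays. The groups were apart, by a log2 change of 0.21 ± 0.06 (SE), or 1.16-fold, which did not pass in limma (adjusted p = 0.074). With tests limited to genes at or above the median level the limma adjusted p was 0.040. HSPA9, the mitochondrial HSP70 that pulls in imported proteins, had 13.24, 13.25 and 13.28 with selamectin, against 13.18, 13.04 and 13.20 untreated. Its groups did not overlap either, at a log2 change of 0.12 (interval -0.03 to 0.26). HSPA6, a strictly stress-inducible HSP70, had 6.73, 6.64 and 6.66 with selamectin, against 6.75, 6.81 and 6.82 untreated. HSPA6 has a near-identical pseudogene, HSPA7, whose signal may enter its value. Its selamectin arrays all lay below the untreated ones, by a narrow gap between 6.73 and 6.75, and its change was -0.11 (interval -0.28 to 0.05, limma adjusted p = 0.43). HSPA12B, a relative of HSPA12A, and HSPA13, an HSP70 of the secretory pathway, overlapped between groups and stood at 0.02 and 0.03.

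HSPH1 is the inducible HSP110, an exchange factor for HSP70. Its log2 values were 11.04, 11.16 and 11.65 on selamectin arrays 1, 2 and 3, against 10.97, 10.72 and 10.85 untreated. All selamectin arrays lay above the untreated ones, but array 3 stood well above the other selamectin arrays. The log2 change was 0.43 ± 0.14 (SE), or 1.35-fold, and its interval ran from 0.12 to 0.75 (limma adjusted p = 0.12). Without selamectin array 3 it was 0.25 (limma adjusted p = 0.16). The related exchange factors HSPA4 and HSPA4L stood at -0.01 (interval -0.23 to 0.20) and 0.01 (interval -0.27 to 0.29).

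The promoter stretches of HSPA2, HSPA8 and HSPA1L are shown because HSPA2 is the member that passed, HSPA8 is the constitutive cytosolic HSP70 and HSPA1L shares its promoter region with HSPA1A. They are the 250 bases before the gene start from RefSeq (build GRCh38.p14), printed 5′ to 3′ on the gene's strand. HSPA2 lies at chr14:64540491-64540740 (plus strand), HSPA8 at chr11:123062137-123062386 (minus strand) and HSPA1L at chr6:31815284-31815533 (minus strand). Capitals mark matches to heat shock element letters, GAANNTTC or TTCNNGAA (2 units), searched on both strands. The 3-unit form contains a 2-unit one and adds another unit after 2 more bases, so that GAA and TTC alternate.
HSPA2: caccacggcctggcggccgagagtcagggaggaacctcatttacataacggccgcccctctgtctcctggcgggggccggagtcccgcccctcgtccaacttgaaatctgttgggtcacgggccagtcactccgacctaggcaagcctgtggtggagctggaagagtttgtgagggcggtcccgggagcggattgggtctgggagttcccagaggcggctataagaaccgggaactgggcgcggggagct
HSPA8: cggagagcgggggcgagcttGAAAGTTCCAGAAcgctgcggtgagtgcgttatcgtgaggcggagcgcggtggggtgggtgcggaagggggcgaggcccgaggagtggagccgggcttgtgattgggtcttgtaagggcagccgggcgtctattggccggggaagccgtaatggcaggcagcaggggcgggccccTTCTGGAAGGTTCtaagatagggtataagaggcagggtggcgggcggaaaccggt
HSPA1L: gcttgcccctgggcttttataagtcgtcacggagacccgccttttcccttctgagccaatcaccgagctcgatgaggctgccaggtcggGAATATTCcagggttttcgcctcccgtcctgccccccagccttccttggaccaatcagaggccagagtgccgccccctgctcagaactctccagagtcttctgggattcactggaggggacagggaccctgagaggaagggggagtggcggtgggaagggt
HSPA8 held 2 matches to the 3-unit form, HSPA1L 1 match to the 2-unit form, and HSPA2 none of these letters in this window. The same window of HSPH1, the member with the highest log2 change (0.43), held none either. The HSPA1L stretch overlapped the 250 bases before HSPA1A, which runs the other way, over 241 bases.

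RefSeq promoters were found for 52 of the 58 members, at 71 starts. The 3-unit form was present in 6 of the 71 (8.45%), against 155 of 35116 promoters of all genes (0.441%), and the 2-unit form in 14 of the 71 (19.7%), against 11.6% of all. The 6 starts with the 3-unit form belonged to HSPA6, HSPA8, HSP90AA1, HSP90AB1, HSPD1 and DNAJB6. Their log2 changes with selamectin lay between -0.11 and 0.21 and none passed. A match describes letters and is not a site shown to be bound.

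HSP90AA1, the stress-inducible cytosolic HSP90, did not pass. Its log2 values were 12.91, 12.83 and 13.24 on selamectin arrays 1, 2 and 3, against 13.00, 12.79 and 12.86 untreated. The groups overlapped, and the change of 0.11 (interval -0.11 to 0.34) was -0.01 without selamectin array 3. HSP90AB1, the constitutive form, had 13.62, 13.60 and 13.63 with selamectin, against 13.58, 13.40 and 13.56 untreated. Its groups did not overlap, with a change of 0.10 (interval -0.05 to 0.24, limma adjusted p = 0.44). HSPD1 and HSPE1 form the mitochondrial chaperonin, a barrel and its lid. HSPD1 had 13.35, 13.31 and 13.37 with selamectin, against 13.32, 13.22 and 13.32 untreated, a change of 0.06 (interval -0.08 to 0.19). HSPE1 had 11.03, 10.99 and 10.95, against 11.13, 11.05 and 11.01 untreated, a change of -0.08 (interval -0.26 to 0.10). The groups overlapped for both.

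A cluster outside the members, annotated to the HSP90AA1 pseudogene HSP90AA2P, rose. It had 11.04, 11.14 and 11.35 on the selamectin arrays, against 10.77, 10.66 and 10.75 untreated, a log2 change of 0.45 (limma adjusted p = 0.027). It lost its call without selamectin array 2 (0.089) or any 1 untreated array (from 0.066 to 0.095). It was chosen after its value was seen. Signal of the parent gene and of its copy cannot be told apart where probes match both.

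None of the 42 J-domain genes passed. At an unadjusted p under 0.05 in limma 5 were higher (11.9%, background 11.7%) and 0 lower (background 8.21%), and their log2 changes ran from -0.17 to 0.33 with a median of 0.04. Among the DNAJA genes, partners of cytosolic HSP70 apart from the mitochondrial DNAJA3, the median was 0.11. DNAJA1, a farnesylated partner of HSP70, had 10.78, 10.79 and 11.42 on selamectin arrays 1, 2 and 3, against 10.80, 10.80 and 10.74 untreated. Selamectin array 3 alone stood apart, and the change of 0.22 (limma adjusted p = 0.46) was 0.0047 without that array. DNAJA4 had 6.69, 6.76 and 6.77 with selamectin, against 6.51, 6.63 and 6.70 untreated, a change of 0.12. DNAJA3, the mitochondrial member, had 11.22, 11.17 and 11.09, against 11.12, 11.02 and 11.07 untreated, a change of 0.09. Both overlapped between groups.

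Of the 11 DNAJB genes, DNAJB2 and DNAJB12 kept their groups apart, both higher with selamectin (18.2%, background 16%). None lay apart and lower (background 9.3%), and the share of higher ones was near that of all genes. DNAJB2, a J-domain protein that also binds ubiquitin, had 7.92, 8.02 and 7.95 with selamectin, against 7.72, 7.77 and 7.76 untreated, a change of 0.21 (limma adjusted p = 0.19). DNAJB12, which works at the membrane of the endoplasmic reticulum in degradation of membrane proteins, had 8.65, 8.68 and 8.62, against 8.43, 8.40 and 8.48 untreated, also a change of 0.21 (limma adjusted p = 0.20). The spread within each group was small next to these differences, yet neither passed. DNAJB13, a protein of sperm tails and cilia, had 5.84, 5.98 and 5.89 with selamectin, against 5.54, 5.87 and 5.78 untreated, a change of 0.17 with overlapping groups. Its mean level was dim, below the 25th percentile of all genes. DNAJB1, the classic stress-inducible HSP40, had 10.69, 10.89 and 10.92 with selamectin, against 10.82, 10.49 and 10.72 untreated. Its groups overlapped, at a change of 0.16 (interval -0.08 to 0.39, limma adjusted p = 0.45). DNAJB4 was lower in mean, at -0.15 (limma adjusted p = 0.42). DNAJB6, which keeps polyglutamine proteins from aggregating, has 2 clusters that disagree, at -0.08 for the cluster with the higher mean and 0.16 for the other.

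Of the 27 DNAJC genes, DNAJC2 and DNAJC12 had the highest changes. DNAJC2 forms the ribosome-associated complex with HSPA14 and acts on chains as they leave the ribosome. Its log2 values were 10.23, 10.15 and 10.46 with selamectin, against 9.95, 9.95 and 9.95 untreated, a change of 0.33 ± 0.10 (SE, limma adjusted p = 0.085). Its partner HSPA14 had 9.52, 9.54 and 9.60, against 9.22, 9.06 and 9.44 untreated, a change of 0.31 ± 0.11 (SE, limma adjusted p = 0.14). Neither pair of groups overlapped, and both genes stood at about 1.25-fold, but neither passed. DNAJC12, a co-chaperone of the aromatic amino acid hydroxylases, had 10.87, 10.82 and 10.55 with selamectin, against 10.33, 10.53 and 10.41 untreated. The groups nearly met, and the change of 0.32 (limma adjusted p = 0.11) was 0.42 and passed without selamectin array 3 (limma adjusted p = 0.022).

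DNAJC11, of the mitochondrial membrane bridging complex, had 10.34, 10.36 and 10.39 with selamectin, against 10.13, 10.00 and 10.28 untreated, a change of 0.23 (limma adjusted p = 0.21). DNAJC5, the cysteine string protein of secretory vesicles, stood at 0.17 and DNAJC6, the clathrin-uncoating partner auxilin, at -0.17, with no overlap between groups for either. DNAJC3, an inhibitor of the kinase PERK found in the endoplasmic reticulum, stood at 0.18, DNAJC9, a histone co-chaperone, at 0.16, DNAJC7, which binds both HSP70 and HSP90, at 0.15 and DNAJC8, a splicing factor, at 0.12. These last 4 overlapped between groups. DNAJC15, a regulator of the respiratory chain, had the widest spread of the members, with means of 7.41 ± 0.41 with selamectin and 7.41 ± 0.54 untreated (SD, n = 3 each), and its change of 0.00037 had an interval from -0.54 to 0.55. The other DNAJC genes had changes between -0.15 and 0.15.

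By the place in the cell assigned here, the 8 mitochondrial members had a median log2 change of 0.07, against 0.04 over all genes. The 7 assigned to the endoplasmic reticulum had 0.09. Many J-domain genes were assigned no place, among them DNAJC14, DNAJC16 and DNAJC18, so these sets may be incomplete. Neither set held a call, and at an unadjusted p under 0.05 in limma each held 1 higher gene (12.5% of the mitochondrial and 14.3% of the endoplasmic reticulum members, background 11.7%).

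The selamectin arrays did not share 1 pattern of chaperone levels. Selamectin array 3 held the highest of the 3 selamectin values for 28 of the 58 members (48.3%), while this was so for 25.4% of all genes. The genes whose value on that array exceeded the mean of the other selamectin arrays the most were DNAJA1 (by 0.64), HSPH1 (0.56), HSPA1L (0.41), HSP90AA1 (0.37), HSPA4L (0.36), HSPA4 (0.31), DNAJB4 (0.28) and DNAJC2 (0.27). These 8 were picked for this difference, so it is a description with no test. Other members stood the other way on array 3, among them HSPE1, which was lowest there. DNAJC15, DNAJC28 and DNAJB6 had signed differences of -0.61, -0.40 and -0.31. Array 3 also held the lowest selamectin value for 19 members, against 18 for array 1 and 21 for array 2. The untreated arrays differed too. Relative to the untreated mean of each gene, the median member stood at 0.02, -0.06 and 0.03 on untreated arrays 1, 2 and 3. The median of all genes stood at -0.02, 0.01 and 0.02 there. On selamectin arrays 1, 2 and 3 the median member stood at 0.05, 0.06 and 0.08, so small changes depend on the low untreated array 2 as well. HSPA2 was lower on array 3 than the mean of the other selamectin arrays, by the signed difference -0.55. Over all genes the second principal component, with 20.8% of the variance, also set this array apart, and what made it differ was not tested.

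**Figure D3:**
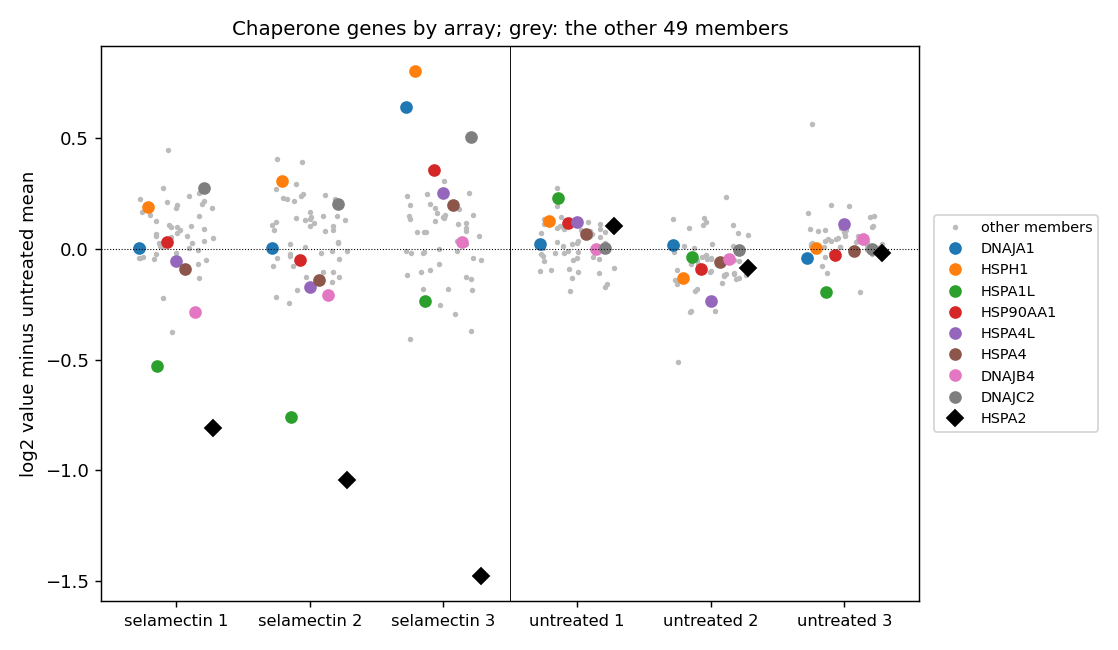
Log2 value minus the untreated mean on each array for HSPA2 and 8 further genes, with the remaining members in grey. The 8 are those whose value on selamectin array 3 most exceeded the mean of the other selamectin arrays. Among them HSPA1L is at -0.23 there, below its untreated mean. HSPH1 reaches 0.80 and DNAJA1 0.64 on selamectin array 3, where HSPA2 is at -1.48, and DNAJA1 is near 0 on the other arrays.

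The rest of the pathway was read from 4 lists with 77 measured genes, of which 3 rose (3.9%, background 2.41%) and 0 fell (background 2.28%) in limma. At an unadjusted p under 0.05 in limma 13 were higher (16.9%, background 11.7%) and 2 were lower (2.6%, background 8.21%). The 31 co-chaperones and exchange factors had a median log2 change of 0.12, with 26 positive and 5 negative (83.9% positive, where 63% of all genes were). At an unadjusted p under 0.05 in limma 5 were higher (16.1%, background 11.7%). The one that rose was TOMM34, which holds mitochondrial precursors together with HSP70 and HSP90. It had 11.56, 11.43 and 11.42 with selamectin, against 10.95, 11.15 and 11.14 untreated, a log2 change of 0.39 ± 0.09 (SE, limma adjusted p = 0.033). The groups were apart, but the call was lost without selamectin array 1 or 2 or untreated array 1 or 3 (adjusted p from 0.096 to 0.13). GRPEL2, a mitochondrial exchange factor (0.26), RPAP3, of an HSP90 assembly complex (0.26), and the exchange factors BAG3 (0.20) and BAG2 (0.17) had the next lowest p and did not pass, at a limma adjusted p from 0.20 to 0.24.

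Among 11 measured heat shock factors and small heat shock proteins, 2 rose and 0 fell (background 2.41% rising and 2.28% falling), and at an unadjusted p under 0.05 in limma 4 were higher (36.4%, background 11.7%) and 0 lower. HSPB8, the partner of BAG3 in chaperone-assisted autophagy, had 10.45, 10.86 and 10.77 with selamectin, against 9.42, 9.49 and 9.42 untreated, a log2 change of 1.25 (limma adjusted p = 0.0011). HSPB7, a small heat shock protein of muscle and heart, had 8.43, 8.19 and 8.31, against 7.71, 7.58 and 7.69 untreated. It rose 1.57-fold, with a log2 change of 0.65 ± 0.10 (SE, limma adjusted p = 0.0063), and kept its call whichever array was left out (highest adjusted p = 0.031). HSPB9, known from testis, stood at 0.23 and HSPB1, the abundant small heat shock protein HSP27, at 0.15, neither passing (limma adjusted p = 0.12 and 0.19).

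The 18 subunits of TRiC, the cytosolic chaperonin that folds actin and tubulin, and of prefoldin, which hands it clients, held no call. Their median log2 change was 0.10, against 0.04 over all genes. At an unadjusted p under 0.05 in limma 3 were higher (16.7%, background 11.7%) and 1 was lower (5.56%, background 8.21%). TCP1 stood at 0.27 (limma adjusted p = 0.061), CCT2 at 0.31 (0.15) and CCT5 at 0.16 (0.23), while PFDN5 stood at -0.31 (0.079). Among 17 further chaperones of the endoplasmic reticulum and mitochondria, which include HSPA5 and DNAJB9, none passed and the median was -0.01, with 1 higher and 1 lower (5.88% each) at an unadjusted p under 0.05 in limma. SERPINH1, a collagen chaperone, stood at 0.22 (limma adjusted p = 0.10), SDF2L1 at -0.27 (0.17), the mitochondrial protease LONP1 at -0.15 (0.43) and HSP90B1, the HSP90 of the endoplasmic reticulum, at -0.08 (0.52).

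**Figure D4:**
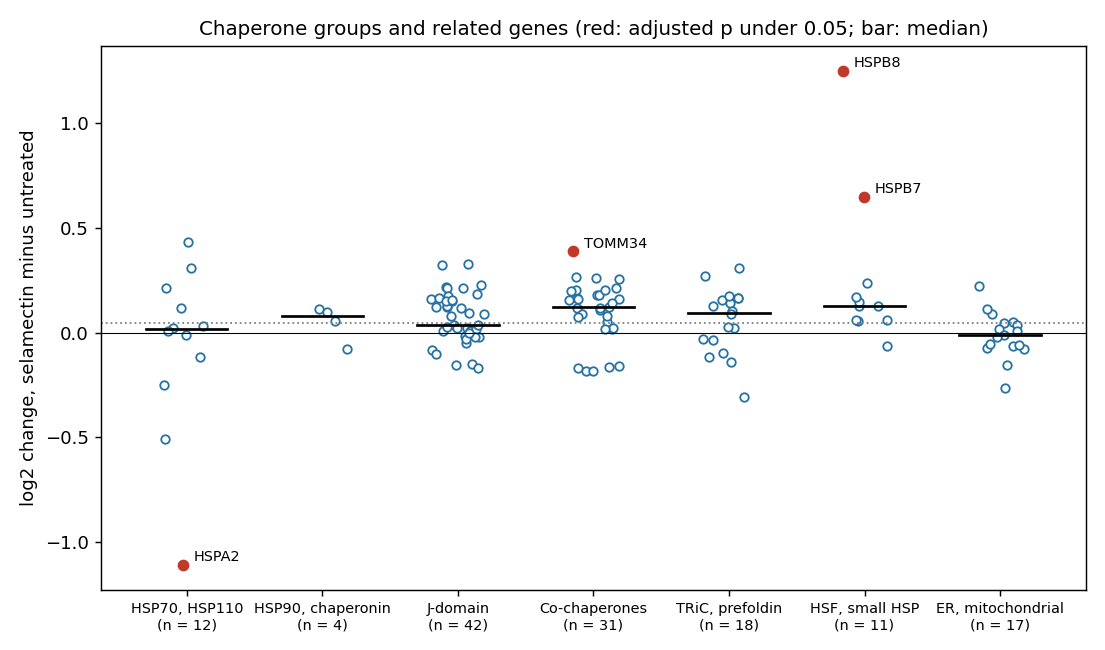
Log2 change, selamectin minus untreated, of the chaperone families and of 4 lists of related genes, with a bar at each median and a dotted line at the median of all genes, 0.04. The 4 red points passed: HSPA2 at -1.11, TOMM34 at 0.39, HSPB7 at 0.65 and HSPB8 at 1.25.

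Over the 18417 genes, 444 rose and 420 fell in limma, and arrays of 1 group correlated across genes with r from 0.9949 to 0.9971. Of 11 genes typical of the line, CD44 rose (0.42, limma adjusted p = 0.020), and at an unadjusted p under 0.05 in limma 4 were higher (36.4%, all genes 11.7%) and 1 was lower (9.09%, all genes 8.21%). None of 13 luminal genes passed, with 6 positive and 7 negative, a median of -0.01, and 0 higher and 3 lower (23.1%) at that unadjusted p. Without detection calls no gene can be called absent. No call was made among 13 leukocyte markers (0 at an unadjusted p under 0.05 in limma) or 12 endothelial markers (1 higher and 1 lower, 8.33% each). Of 12 fibroblast markers PDGFRB rose (0.34, limma adjusted p = 0.040), and at the unadjusted p 2 were higher (16.7%) and 0 lower. PDGFRB lost its call when any 1 array was left out (from 0.056 to 0.13), and CD44 without selamectin array 1 or 2 or untreated array 1 or 3 (from 0.064 to 0.087).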

How the data were processed

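RNA of 6 samples was measured on Affymetrix whole-transcript arrays. The authors deposited 1 log2 value for each of 33297 transcript clusters. Per the submitters' processing notes, RMA was used, and the Affymetrix programs Expression Console and Transcriptome Analysis Console, with no version or role given; the log base is taken from RMA. RMA as commonly run normalizes arrays to each other, which hides a shift of all genes, and compresses changes of dim genes. For the array annotation, no build is given in the sources used here, and scan batches were not analysed. There is no read depth; the number of arrays limits the precision, with a median SE of 0.094 for a log2 change.

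Clusters with 1 symbol numbered 19460; the cluster with the highest mean over the 6 arrays stood for a gene. All 58 members matched a RefSeq entry by Entrez number. Groups came from the titles. limma 3.58.1 in R 4.3.3 (lmFit, eBayes with an intensity trend) compared selamectin minus untreated over 18417 genes, two-sided, with no filter and no replicate block. It was tested on simulated data. Values are printed for genes past the threshold, the 3 lowest p in each family, fixed stress-inducible and constitutive genes, and up to 4 genes a list. HSP90AB1, HSPA6 and the other fixed names follow that rule, and further members were named to complete their family. Members, lists and rule were chosen with earlier results of these data known. Alternatives were other normalizations, filters, eBayes settings, array weights, cluster choices, a replicate block, left-out arrays and other thresholds.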

Additional observations from a re-analysis of the deposited data

How the results depend on the processing

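HSPA2 kept its fall in all 16 alternatives, with log2 changes from -1.26 to -0.93 and limma adjusted p-values up to 0.043 (all clusters in the fit). Relative to the median of its family it lay between -1.30 and -0.92 over 10 alternatives. The replicate block, median centring and averaging of clusters, counted among these, cannot alter that value. Centring shifts all genes of an array equally, and in this family only HSPA1L has more than 1 cluster, with the same values in each. The count of rising members, 0, became 1 among genes at or above the median level (HSPA8), 4 with array weights (DNAJC12, DNAJC2, HSPA8, HSPH1), 2 at an adjusted p under 0.1 and 8 at an unadjusted p under 0.05; it was 0 to 1 when single arrays were left out. The count of falling members, 1, became 3 with array weights (adding HSPA1L and HSPA12A), 2 at an adjusted p under 0.1 and 3 at an unadjusted p under 0.05, and 1 to 2 with single arrays left out. Array weights gave untreated array 3 a weight of 5.11, against 0.45 to 1.22 for the others, and called 17.8% of all genes. In the 4 lists, the 3 rises became 7 with array weights and 13 at an unadjusted p under 0.05, and 2 to 5 with single arrays left out; the 0 falls became 4 with array weights, 1 at an adjusted p under 0.1 and 2 at an unadjusted p under 0.05, and stayed 0 with single arrays left out.

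Genes near 0 changed sign. DNAJC15 stood at -0.026 after a second quantile normalization, -0.00074 with median-centred arrays and -0.33 with array weights, HSPA4L at -0.036 after the second quantile normalization and -0.13 with array weights, HSPA13 at -0.026 with array weights, and DNAJB6 at 0.040 with clusters averaged. With single arrays left out, the log2 change ran from -0.26 to 0.28 for DNAJC15, -0.11 to 0.099 for HSPA4L, -0.11 to 0.13 for HSPA13, -0.16 to 0.021 for DNAJB6, -0.0089 to 0.19 for HSP90AA1, -0.031 to 0.075 for HSPA12B and -0.11 to 0.053 for HSPA4. The causes were not tested.

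Same-numbered arrays of the 2 groups had deviations correlated at -0.011, 0.24 and -0.14, and the other pairs ran from -0.21 to 0.30. These deviations are from means of 3 arrays, which ties them together. They cannot decide whether arrays of the same number share a batch. Over all genes, 864 calls became 650 with that number as a block. They became 3286 with array weights, 167 with all clusters in the fit, 234 without selamectin array 2, 176 without untreated array 1 and 254 without untreated array 3. With the replicate block HSPA2 kept its call (limma adjusted p = 0.0094), the members that rose and fell stayed 0 and 1, and rises in the lists were 2, without TOMM34 (0.067). TOMM34 (0.098) and HSP90AA2P (0.094) also lost their calls when the fit took in every cluster. At or above the 25th percentile of mean level were 54 of the 58 members, and 44 were at or above the median.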
